A study of Mus musculus with 12 samples.

Results

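The 10 genes described here encode enzymes that build triglyceride from glycerol 3-phosphate and enzymes that break it down: Gpd1, Gpam, Gpat3, Agpat2, Lpin1, Dgat1, Dgat2, Pnpla2, Lipe and Mgll. They were chosen by name for their reactions, from 37991 gene identifiers counted, and all 10 were among the 16163 genes with enough reads to test. Sequencing of polyadenylated RNA measured their transcripts in cultured fibroblasts of mouse embryos, 6 days after the start of adipocyte differentiation. The cells came from male E15.5 embryos on a C57BL/6N background and had gone through 4 passages. After confluence, insulin at 10 µg/ml was given together with rosiglitazone at 2 µM, dexamethasone at 1 µM and IBMX at 0.5 mM for 48 h, followed by medium with insulin. IBMX blocks cyclic AMP breakdown, dexamethasone activates the glucocorticoid receptor, and rosiglitazone activates PPARγ, the nuclear receptor that directs fat cell formation.

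The genotypes, as labelled, were Gadd45a-/-;Ing1-/- (double knockout, DKO), Ing1-/- (Ing1-KO), Gadd45a-/- (Gadd45a-KO) and wild type (WT), with 3 libraries each, 12 in total. Ing1 encodes a protein that binds methylated histone H3, and Gadd45a a small protein that responds to stress and has been tied to removal of DNA methylation. All libraries come from whole cultures, in which fibroblasts, fat cells and other cells are mixed. Fewer fat cells and less RNA of a gene per fat cell cannot be told apart in such data. Whether the replicates are separate embryos or cultures is not stated in the labels, so p-values measure only the spread between these libraries.

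In fat cells, triglyceride is made by adding fatty acids to glycerol 3-phosphate in sequence. A dehydrogenase supplies glycerol 3-phosphate, acyltransferases of the GPAT and AGPAT families add the first fatty acids, a lipin removes the phosphate, and a DGAT adds the last fatty acid. Breakdown runs in the other direction, with adipose triglyceride lipase, hormone-sensitive lipase and monoacylglycerol lipase each releasing a fatty acid. Most steps can be carried by several isozymes, some of them present in nearly all cells and others most abundant in fat.

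Each library held between 42891627 and 52860419 reads assigned to genes. Ing1 followed its label, with 0.915 ± 0.234 CPM (counts scaled to library size) in DKO and 1.22 ± 0.326 CPM in Ing1-KO, against 46.0 ± 1.47 CPM in Gadd45a-KO and 45.4 ± 2.26 CPM in WT (SD, n = 3 each). Gadd45a did not: the libraries labelled DKO had 140.0 ± 1.90 CPM and those labelled Gadd45a-KO 143 ± 1.75 CPM, while Ing1-KO had 15.6 ± 2.55 CPM and WT 15.8 ± 1.82 CPM. The exons those reads fall in cannot be read from gene counts. Every direction given below for DKO or Gadd45a-KO is that of the libraries carrying the label. Markers of fat cells were present in all 12 libraries, except Lep in DKO replicate 2 and Retn in DKO replicate 3, which were at 0. Markers of macrophages and other leukocytes were also present in all 12 libraries, none of them at 0.

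All 10 enzyme transcripts were lower in the libraries labelled DKO than in WT, at every step from glycerol 3-phosphate to triglyceride and back. A gene was called where its Benjamini-Hochberg adjusted p in edgeR's quasi-likelihood test was under 0.05, and 10 of 10 were called lower, against 7.11% of all genes tested. The log2 fold changes lay between -5.48 for Gpd1 and -0.56 for Gpam, with a median of -2.14, against -0.00265 over all genes tested. For all 10, every DKO library lay below every WT library, which held for 19.7% of all genes tested. The number called fell to 0 without DKO replicate 1, to 2 without WT replicate 1, to 3 without DKO replicate 2 and to 4 without WT replicate 3. Over all genes tested, those called lower fell from 1149 to 167, 174, 411 and 384 in these fits, in the same order. Without DKO replicate 1 the adjusted p-values in edgeR's quasi-likelihood test lay above the threshold, beginning at 0.0505 for Gpam, and the log2 fold changes of the 10 genes kept their sign in each of the 12 fits that left out a library.

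**Figure D1:**
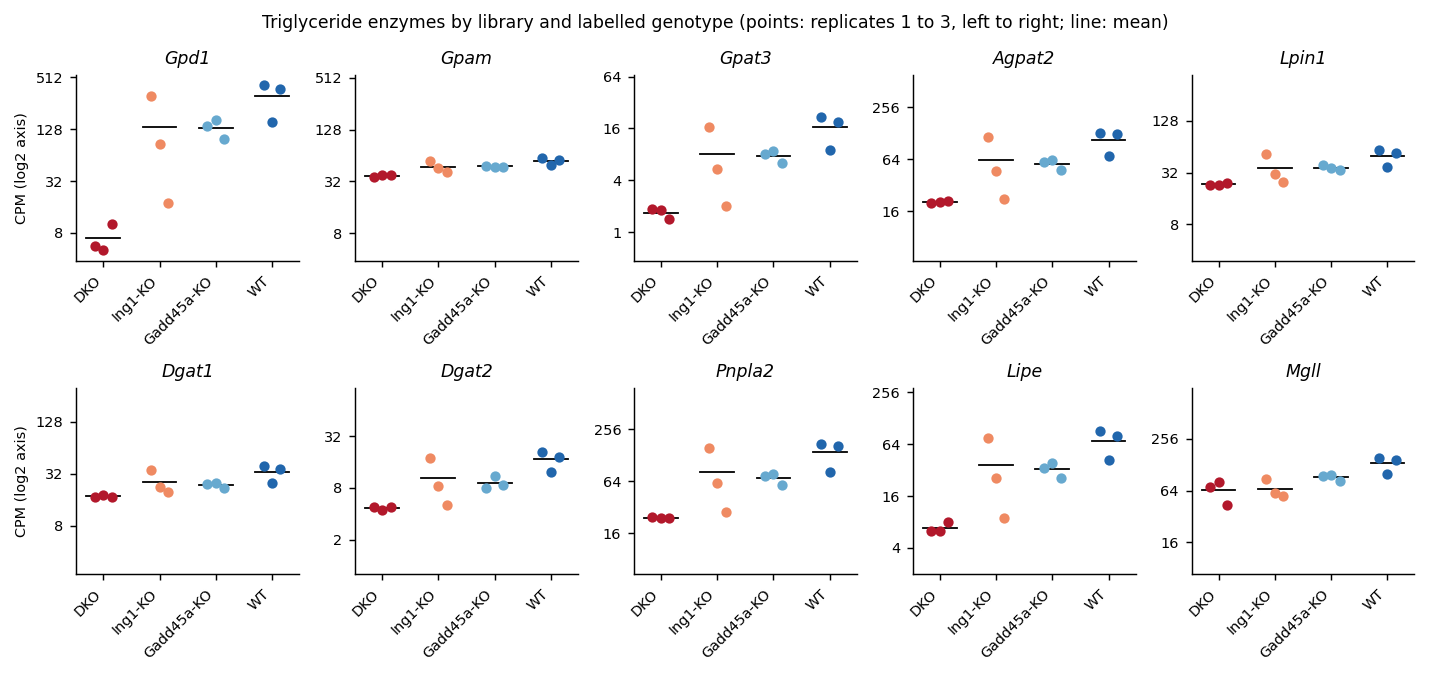
Each panel shows 1 of the 10 enzymes in synthesis-to-breakdown order, with CPM on a log axis and the libraries labelled DKO, Ing1-KO, Gadd45a-KO and WT from left to right; points are single libraries and horizontal lines are means of 3. The DKO points lie below the WT points in all 10 panels, and on the log axis the Ing1-KO points spread most in 9 of 10, from 17.6 to 309 CPM for Gpd1, while for Mgll the DKO points do.

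Gpd1 reduces dihydroxyacetone phosphate to glycerol 3-phosphate and so supplies the backbone of triglyceride. It had 5.70, 5.03 and 10.3 CPM in the DKO libraries, against 414, 156 and 375 CPM in the WT libraries. The groups lie far apart, with the highest DKO library far below the lowest WT library. It fell by 5.48 ± 0.956 (SE) on the log2 scale, with a 95% interval from -7.62 to -3.35 (edgeR quasi-likelihood, adjusted p = 0.0104). This was the largest change of the 10.

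The first acylation is carried by GPAT enzymes, among them Gpam, the mitochondrial form, and Gpat3, a form of the endoplasmic reticulum. Gpam had 35.6, 37.6 and 38.4 CPM in DKO, against 59.5, 49.1 and 56.4 CPM in WT. Gpat3 had 1.85, 1.79 and 1.42 CPM in DKO, against 21.8, 8.99 and 19.2 CPM in WT. Neither pair of groups overlapped, but the sizes differed widely. Gpam fell by 0.56 ± 0.0988 on the log2 scale (edgeR, adjusted p = 0.00930), the smallest change of the 10 and the one with the lowest adjusted p. Gpat3 fell by 3.31 ± 0.681 on the log2 scale (edgeR, adjusted p = 0.0164).

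Agpat2 makes phosphatidic acid from lysophosphatidic acid, and its loss causes a congenital lipodystrophy in humans. It had 19.9, 20.7 and 21.2 CPM in DKO, against 130.1, 70.1 and 125 CPM in WT, and fell by 2.39 ± 0.502 on the log2 scale (edgeR, adjusted p = 0.0173). The DKO libraries lay close together, while WT replicate 2 lay well below the other WT libraries. Lpin1 encodes lipin 1, which turns phosphatidic acid into diacylglycerol and also acts on transcription in the nucleus. It had 22.8, 22.9 and 24.6 CPM in DKO, against 58.1, 37.6 and 54.0 CPM in WT, and fell by 1.09 ± 0.249 on the log2 scale (edgeR, adjusted p = 0.0217). WT replicate 2 was again the lowest WT library and stayed above all DKO libraries.

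Dgat1 and Dgat2 catalyse the last step from unrelated protein families. Dgat1 had 17.3, 18.3 and 17.3 CPM in DKO, against 39.9, 24.9 and 36.7 CPM in WT, and fell by 0.94 ± 0.223 on the log2 scale (edgeR, adjusted p = 0.0257). Dgat2 had 4.76, 4.42 and 4.74 CPM in DKO, against 20.8, 12.2 and 18.5 CPM in WT, and fell by 1.89 ± 0.395 on the log2 scale (edgeR, adjusted p = 0.0172). Both were lower in each DKO library than in any WT library. The log2 ratio of Dgat2 to Dgat1 reads was -1.93 ± 0.107 in DKO and -0.99 ± 0.0453 in WT (SD, n = 3 each), with no overlap between the groups.

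The lipases were lower as well, so the difference was not restricted to synthesis. Pnpla2, which encodes adipose triglyceride lipase and starts the breakdown, had 24.5, 24.1 and 24.3 CPM in DKO, against 172, 81.1 and 163 CPM in WT. It fell by 2.51 ± 0.532 on the log2 scale (edgeR, adjusted p = 0.0176). Lipe, which encodes hormone-sensitive lipase and acts mainly on diacylglycerol, had 6.27, 6.27 and 8.06 CPM in DKO, against 91.0, 42.0 and 79.1 CPM in WT. It fell by 3.36 ± 0.666 on the log2 scale (edgeR, adjusted p = 0.0150), the largest change among the 3 lipases. Mgll, which encodes the lipase for monoacylglycerol and also degrades an endocannabinoid, had 71.0, 80.3 and 43.8 CPM in DKO, against 155, 98.7 and 144 CPM in WT. DKO replicate 3 was the lowest Mgll library of all 12, and Mgll fell by 1.03 ± 0.250 on the log2 scale (edgeR, adjusted p = 0.0273).

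**Figure D2:**
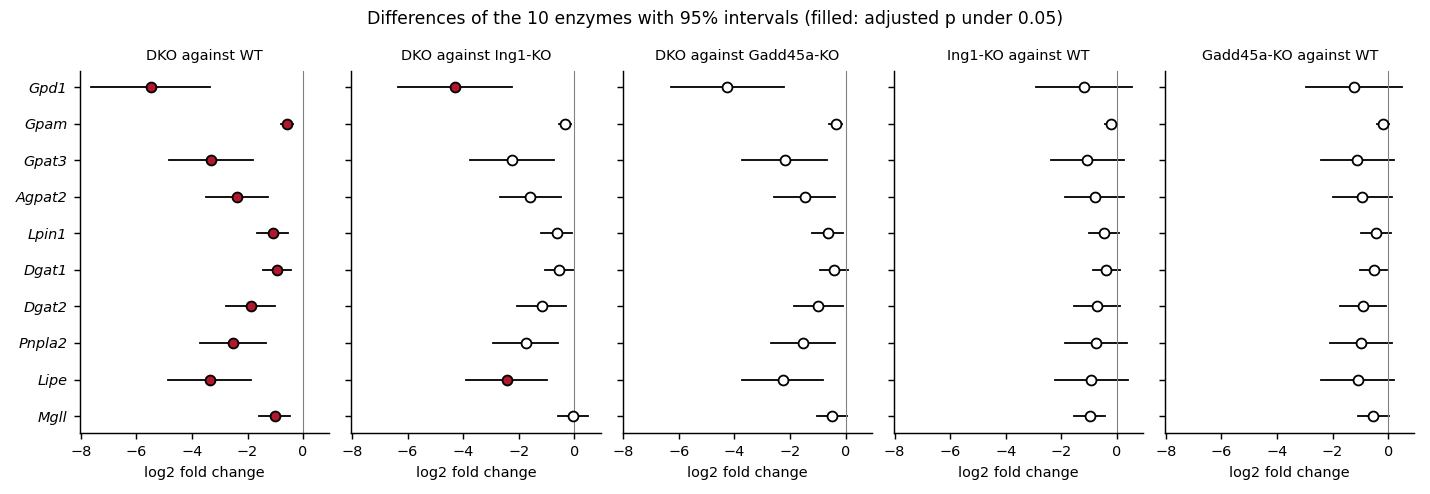
Log2 fold changes of the 10 enzymes in the 5 pairwise comparisons, with 95% intervals as lines; filled points passed the adjusted p threshold of 0.05. All 10 passed for DKO against WT, 2 for DKO against Ing1-KO, and 0 in the other 3 comparisons drawn.

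Divided by exon length, the enzymes also changed places. In the libraries labelled DKO, Mgll had the highest mean, 12.8 ± 3.73 CPM per kilobase (SD, n = 3), ahead of Agpat2 at 9.68 ± 0.300 and Pnpla2 at 8.03 ± 0.0643. That lead lay within the spread of Mgll, since in DKO replicate 3 Mgll had 8.63 and Agpat2 9.96 CPM per kilobase. In WT, Gpd1 stood first at 106 ± 47.1 CPM per kilobase, ahead of Agpat2 at 50.8 ± 15.6, Pnpla2 at 45.9 ± 16.6 and Mgll at 26.1 ± 5.83. Gpd1 was only the seventh of the 10 in DKO, at 2.37 ± 0.966 CPM per kilobase, which does not separate it from Lpin1 at 2.42 ± 0.104. Gpat3 was the lowest of the 10 in both, at 0.482 ± 0.0664 CPM per kilobase in DKO and 4.77 ± 1.94 in WT. In WT, several neighbours in the order lay within their spread of each other: Agpat2 and Pnpla2, Lipe at 12.0 ± 4.35 and Dgat1 at 11.1 ± 2.58, and Dgat2, Lpin1 and Gpat3 between 4.77 and 5.56. In Ing1-KO, Gpd1 had the highest mean as in WT, but at 46.6 ± 51.3 CPM per kilobase its spread exceeded its mean.

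For 7 of the 10 genes, all but Gpd1, Dgat1 and Dgat2, windows from 250 bases before to 50 bases after the annotated transcription start are given by RefSeq on build GRCm38.p6, 10 windows in all. The windows of 5 genes, chosen by the expression values of these genes, are printed 5′ to 3′ on the gene's strand. Whether these sequences bear on the expression differences was not tested. Lipe had the largest change of the genes with a window and Gpam the smallest, Agpat2 and Pnpla2 had the most alike library patterns, and Mgll departed from the other 9 in Ing1-KO. Capitals mark the motif matches described after the sequences. Lipe, Mgll and Gpam each have a second window that is not printed, at chr7:25390063-25390362, chr6:88724454-88724753 and chr19:55099428-55099727. The printed Lipe window lies at chr7:25395938-25396237 and the Pnpla2 window at chr7:141454938-141455237. The Agpat2 window lies at chr2:26604368-26604667, the printed Mgll window at chr6:88724162-88724461 and the printed Gpam window at chr19:55127189-55127488. Lipe, Agpat2 and Gpam lie on the minus strand, and Pnpla2 and Mgll on the plus strand.
Lipe: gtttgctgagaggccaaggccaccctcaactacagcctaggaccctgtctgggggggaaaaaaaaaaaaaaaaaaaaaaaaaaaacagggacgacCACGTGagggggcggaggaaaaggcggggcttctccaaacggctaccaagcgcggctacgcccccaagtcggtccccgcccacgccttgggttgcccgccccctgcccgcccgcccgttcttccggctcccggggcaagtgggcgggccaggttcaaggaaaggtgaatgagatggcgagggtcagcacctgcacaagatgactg
Pnpla2: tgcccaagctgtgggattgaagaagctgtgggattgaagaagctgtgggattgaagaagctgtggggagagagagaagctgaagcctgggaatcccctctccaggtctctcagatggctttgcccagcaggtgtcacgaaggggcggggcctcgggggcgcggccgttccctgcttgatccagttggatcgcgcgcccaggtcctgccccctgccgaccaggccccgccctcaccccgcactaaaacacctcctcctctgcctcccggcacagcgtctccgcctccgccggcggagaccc
Agpat2: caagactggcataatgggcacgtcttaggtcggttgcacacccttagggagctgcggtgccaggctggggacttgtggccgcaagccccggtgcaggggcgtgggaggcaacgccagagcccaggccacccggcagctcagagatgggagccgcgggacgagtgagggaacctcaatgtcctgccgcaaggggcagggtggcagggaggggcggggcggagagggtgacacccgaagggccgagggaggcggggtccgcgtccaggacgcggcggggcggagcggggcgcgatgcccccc
Mgll: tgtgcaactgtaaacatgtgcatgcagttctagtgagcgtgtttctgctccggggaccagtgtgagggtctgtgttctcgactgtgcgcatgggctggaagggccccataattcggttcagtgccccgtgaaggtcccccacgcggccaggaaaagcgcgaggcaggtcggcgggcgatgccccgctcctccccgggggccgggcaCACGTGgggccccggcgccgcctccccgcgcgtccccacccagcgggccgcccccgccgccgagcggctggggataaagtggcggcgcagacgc
Gpam: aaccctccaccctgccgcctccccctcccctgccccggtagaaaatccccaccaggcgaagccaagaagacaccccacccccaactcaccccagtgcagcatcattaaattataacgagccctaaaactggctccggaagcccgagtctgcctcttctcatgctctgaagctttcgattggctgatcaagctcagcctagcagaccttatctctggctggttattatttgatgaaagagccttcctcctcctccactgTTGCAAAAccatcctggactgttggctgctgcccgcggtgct

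These windows were searched on both strands for motifs of factors known from fat cells. The PPAR-RXR direct repeat, searched as AGGTCANAGGTCA, was in 0 of the 10 windows and in 0.0396% of 32817 mouse promoter windows of the same length. Its single element, AGGTCA, which lies within that repeat, was in 2 of the 10, those of Lpin1 and of a second Gpam start, and in 16.3% of all. The E-box CACGTG, bound by USF and SREBP1, was in 2 of the 10 and in 7.15% of all. It lay in the printed Lipe window 155 bases before the start and in the printed Mgll window 44 bases before the start. A C/EBP motif, TTGCNNAA, was in the printed Gpam window, 1 of the 10, and in 10.8% of all. The printed Agpat2 and Pnpla2 windows and the second windows of Lipe and Mgll held none of these motifs. A match describes letters in these windows and does not locate a bound site, and no binding was measured here.

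At the AGPAT and lipin steps the isozyme with the highest mean share in the libraries labelled DKO was not that of WT. Shares are of each step's CPM per kilobase of exon, and the glycerol 3-phosphate dehydrogenases were grouped in the same way. Agpat2 made up 18.6% ± 1.03 of the 5 AGPAT transcripts in DKO and 52.3% ± 7.24 in WT (SD, n = 3 each), while Agpat1 made up 42.4% ± 1.40 in DKO and 23.3% ± 4.61 in WT. Of the GPAT transcripts, Gpat3 made up 2.03% ± 0.309 in DKO and 14.7% ± 4.88 in WT, and Gpat4 made up 74.2% ± 0.217 in DKO and 59.0% ± 4.80 in WT. Gpat4 was thus the main GPAT transcript in DKO and in WT, while Agpat1, a broadly expressed enzyme, outranked Agpat2 in DKO and not in WT. Gpd1 made up 22.2% ± 7.03 of the glycerol 3-phosphate dehydrogenase transcripts in DKO and 91.7% ± 4.22 in WT, the remainder being Gpd1l and the mitochondrial Gpd2. The highest mean share in DKO was that of Gpd2, which is not counted here as an isozyme of the Gpd1 step. Among lipins, Lpin2 made up 55.1% ± 2.21 in DKO and 35.1% ± 5.21 in WT, and Lpin1 made up 26.1% ± 1.31 in DKO and 46.8% ± 5.93 in WT. The lead of Lpin1 in WT did not hold in every library: in WT replicate 2 Lpin2 made up 41.0% and Lpin1 40.05%. Lpin2 also had the higher mean in Ing1-KO, 39.0% ± 6.66 against 35.4% ± 8.09 for Lpin1. In Gadd45a-KO it had 43.3% ± 4.21 against 40.6% ± 5.38, and both leads lay within the spread. Agpat2 had the higher mean in Ing1-KO, 35.9% ± 17.3 against 33.0% ± 10.9 for Agpat1. In Ing1-KO replicate 3, however, Agpat1 made up 43.4% and Agpat2 20.05%. With the longest transcript as length the WT means were 43.1% ± 5.94 for Lpin2 and 46.0% ± 6.26 for Lpin1, within their spread, while Agpat2 and Gpd1 led in all 3 WT libraries with either length. Library shares of these 7 genes did not overlap between DKO and WT, but with 3 libraries against 3 no exact test can go below p = 0.1.

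Shares within a step sum to the whole, so the levels themselves were compared too. Gpat4 differed by -0.08 on the log2 scale between DKO and WT, with a 95% interval from -0.16 to 0.01 (edgeR, adjusted p = 0.242). For Agpat1 the difference was 0.03, with an interval from -0.08 to 0.14 (edgeR, adjusted p = 0.738). Gpd1l differed by 0.07, with an interval from -0.06 to 0.20, and Gpd2 by -0.07, with an interval from -0.19 to 0.04. The bound farthest from 0 among these intervals is 0.20, which is less than the change of any of the 10 enzymes. Lpin2 had 62.7 ± 3.49 CPM in DKO against 46.4 ± 1.99 CPM in WT and rose by 0.43 ± 0.0986 on the log2 scale (edgeR, adjusted p = 0.0197). Of the lipases, Mgll made up 57.3% ± 8.34 of the 3 transcripts in DKO and 31.9% ± 3.93 in WT, and Lipe made up 5.49% ± 1.83 in DKO and 14.1% ± 0.847 in WT.

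**Figure D3:**
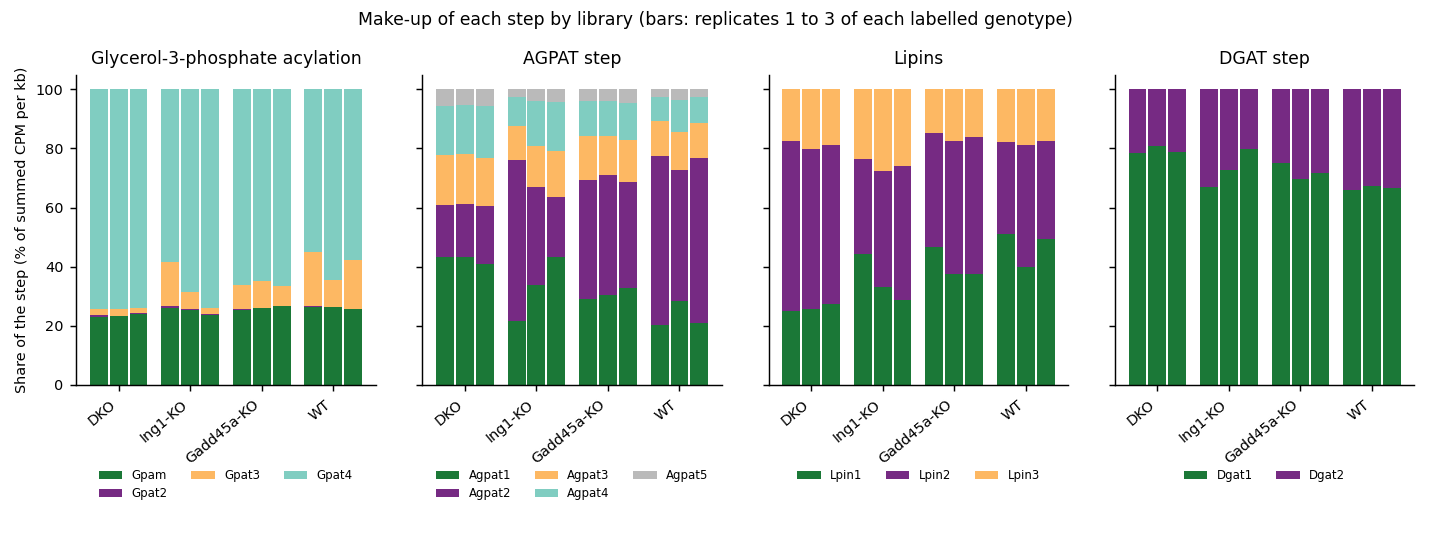
Stacked bars give the share of each isozyme among the transcripts of its step, as percent of summed CPM per kilobase of exon. There is 1 bar for each library labelled DKO, Ing1-KO, Gadd45a-KO and WT, and the dehydrogenases are not drawn. Agpat2 fills on average 18.6% of its step in DKO and 52.3% in WT.

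Between Ing1-KO and WT none of the 10 enzymes passed the threshold, and the Ing1-KO libraries lay far apart. Replicate 1 lay within the WT range for 9 of the 10, all but Mgll, and replicate 3 lay nearer to the DKO mean than to the WT mean for all 10. Gpd1 had 309, 87.5 and 17.6 CPM in Ing1-KO, against 414, 156 and 375 CPM in WT. Lipe had 76.5, 26.3 and 8.98 CPM in Ing1-KO, against 91.0, 42.0 and 79.1 CPM in WT. All 10 enzymes had the same order among the Ing1-KO libraries, with replicate 1 highest and replicate 3 lowest. Replicate 1 exceeded replicate 3 by a factor of 17.5 for Gpd1, 8.52 for Lipe and 8.33 for Gpat3, but only 1.58 for Mgll and 1.35 for Gpam. The summed fat cell markers had the same order in these libraries, with 3224 CPM in replicate 1, 1102 CPM in replicate 2 and 394 CPM in replicate 3.

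By edgeR's quasi-likelihood test 0 of 10 enzymes were called between Ing1-KO and WT, against 1.84% of all genes called lower. At an unadjusted p under 0.05 there were 2 lower, Gpam and Mgll, as were 10.3% of all genes. DESeq2 and limma-voom each called 1, Mgll, and called 608 and 306 of all genes lower. The log2 fold changes lay between -1.19 for Gpd1 and -0.23 for Gpam, with a median of -0.78, against 0.00317 over all genes tested. Mgll was the exception to the overlap: it had 86.4, 60.3 and 54.6 CPM in Ing1-KO, against 155, 98.7 and 144 CPM in WT, and 1 of 10 enzymes thus lay below WT without overlap, as did 12.5% of all genes. Its log2 fold change was -0.98 ± 0.249 (edgeR, adjusted p = 0.0584). In Ing1-KO replicate 1 the other 9 enzymes stood between 0.98 and 1.12 times the WT mean, and Mgll at 0.653 times. Leaving out Ing1-KO replicate 1 brought the number called to 8, and leaving out DKO replicate 3, which enters through the shared spread, brought it to 1. Over all genes tested, those called lower went from 297 to 478 and 328 in these fits.

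None of the 10 passed the threshold between Gadd45a-KO and WT either, and the libraries labelled Gadd45a-KO lay close together. This comparison shares the WT libraries with the others against WT. Gpd1 had 139, 163 and 99.5 CPM in Gadd45a-KO, against 414, 156 and 375 CPM in WT. Pnpla2 had 74.0, 78.3 and 57.9 CPM in Gadd45a-KO, against 172, 81.1 and 163 CPM in WT. WT replicate 2 lay near the Gadd45a-KO libraries, while WT replicates 1 and 3 lay well above them. With edgeR 0 of 10 were called, against 0.00619% of all genes called lower, and DESeq2 and limma-voom called 0 as well. At an unadjusted p under 0.05 there were 2 lower, Dgat1 and Dgat2, as were 3.55% of all genes, and 8 of 10 lay below WT without overlap, as did 7.61% of all genes. The log2 fold changes lay between -1.23 for Gpd1 and -0.20 for Gpam, with a median of -0.91, and every adjusted p was 0.897 in edgeR's test. Agpat2 made up 38.9% ± 2.58 of AGPAT transcripts in Gadd45a-KO and 52.3% ± 7.24 in WT, and in both groups it was the leading one.

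Set against Ing1-KO, the libraries labelled DKO were lower in Gpd1 and Lipe, the enzyme that supplies the backbone and the hormone-sensitive lipase. Gpd1 fell by 4.29 ± 0.915 on the log2 scale (edgeR, adjusted p = 0.0253) and Lipe by 2.44 ± 0.653 (edgeR, adjusted p = 0.0419). These were 2 of 10, against 6.02% of all genes called lower, and the median of the 10 log2 fold changes was -1.38, against -0.0150 over all genes tested. All but Mgll, 9 of 10 enzymes, lay below Ing1-KO without overlap, as did 16.8% of all genes. Mgll had 71.0, 80.3 and 43.8 CPM in DKO, against 86.4, 60.3 and 54.6 CPM in Ing1-KO. The log2 fold change of Mgll was -0.05, with an interval from -0.60 to 0.51, and it became 0.18 without Ing1-KO replicate 1 and 0.17 without DKO replicate 3. This comparison shares its DKO libraries with the comparison against WT, and the 2 are not independent.

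The count of 2 changed with single libraries and with the test. Without Ing1-KO replicate 3, 9 enzymes were called. Without Ing1-KO replicate 1 or 2, or DKO replicate 1 or 2, 0 were. Over all genes tested, those called lower went from 973 to 1779 without Ing1-KO replicate 3. They fell to 148 and 9 without Ing1-KO replicate 1 and 2, and to 4 and 76 without DKO replicate 1 and 2. Leaving out DKO replicate 3, WT replicate 1 or 3, or any 1 Gadd45a-KO library left 1, Gpd1, and leaving out WT replicate 2 gave 3. DESeq2 called 9, limma-voom 0, and a fit of only the 6 libraries compared 0. These called 1373, 726 and 383 of all genes lower.

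Against Gadd45a-KO, the libraries labelled DKO were below every Gadd45a-KO library for all 10 enzymes, as were 13.6% of all genes, but none passed the adjusted threshold. Gpd1 had 5.70, 5.03 and 10.3 CPM in DKO, against 139, 163 and 99.5 CPM in Gadd45a-KO, and the log2 fold change was -4.25 ± 0.914 (edgeR, adjusted p = 0.0557). Pnpla2 had 24.5, 24.1 and 24.3 CPM in DKO, against 74.0, 78.3 and 57.9 CPM in Gadd45a-KO, a log2 fold change of -1.53 ± 0.520 (edgeR, adjusted p = 0.147). In edgeR's test 0 of 10 were called, against 0.557% of all genes called lower, with 8 lower at an unadjusted p under 0.05, as were 9.5% of all genes. DESeq2 called 6 and limma-voom 0, and edgeR fitted to only the 6 libraries compared called 9, all but Mgll. These called 537, 114 and 343 of all genes lower, against 90 in the main fit. Leaving out Ing1-KO replicate 1 gave 5 calls and leaving out Ing1-KO replicate 3 gave 4, with 301 and 339 of all genes called lower. The median log2 fold change was -1.23, against -0.00261 over all genes tested.

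The interaction asks whether the difference between DKO and WT exceeds the sum of the single-mutant differences on the log2 scale. For Gpd1 it was -3.06 ± 1.15, with an interval from -5.63 to -0.49 (edgeR, unadjusted p = 0.0244, adjusted p = 0.310). For Mgll it was 0.49 ± 0.350, with an interval from -0.29 to 1.27, the only positive value of the 10. In edgeR's test 0 of 10 were called and 0% of all genes, and 1 had an unadjusted p under 0.05 with a negative value, as had 7.15% of all genes. DESeq2 and limma-voom called 0 of the 10. Of all genes, DESeq2 called 73 higher and 96 lower, and limma-voom 0 in either direction. Without Ing1-KO replicate 3, edgeR called 47 of all genes higher and 144 lower, and 0 of the 10. The intervals are wide: that of Gpat3 ran from -3.13 to 0.86, and the data do not show whether the single-mutant differences add up or not.

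Of genes that feed or surround synthesis, Pck1, Aqp7 and Acsl1 fell the most between DKO and WT. A list of 24 further genes of glycerolipid synthesis had 23 tested, Mogat1 having too few reads; 6 were lower and 1 was higher, Lpin2, against 7.11% of all genes called lower and 5.88% higher. The single higher gene of 23 is no larger a share than that of all genes, and the median log2 fold change was -0.07 against -0.00265 over all genes. Pck1, which feeds glyceroneogenesis, had 1.32 ± 0.610 CPM in DKO and 42.8 ± 19.6 CPM in WT and fell, with a 95% interval of the log2 fold change from -7.02 to -2.98 (edgeR, adjusted p = 0.0112). Acsl1, the main acyl-CoA synthetase of fat cells, had 28.9 ± 3.8 CPM in DKO and 396 ± 151 CPM in WT and fell by 3.77 on the log2 scale (edgeR, adjusted p = 0.0121). Aqp7, a glycerol channel, fell by 4.29 (edgeR, adjusted p = 0.0172), and Acsl6, Acsl3 and the phosphatase gene Plpp3 were the other 3 that fell. Acsl6 lay at low levels, 0.218 CPM in DKO and 0.517 CPM in WT. The other 16 passed in neither direction. The number lower fell to 0 without DKO replicate 1, to 1 without WT replicate 1 and to 2 without DKO replicate 2. Over all genes tested, those called lower fell from 1149 to 167, 174 and 411 in these fits, in the same order.

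A list of 24 genes that control lipolysis or encode other lipases had 11 lower and 3 higher in DKO than in WT, against 7.11% of all genes called lower and 5.88% higher, with a median log2 fold change of -0.56. The number lower fell to 1 without DKO replicate 1, to 2 without WT replicate 1, to 3 without DKO replicate 2 and to 4 without WT replicate 3. Over all genes tested, those called lower fell from 1149 to 167, 174, 411 and 384 in these fits, in the same order. The 11 included activators and brakes of breakdown alike. Abhd5, the coactivator of adipose triglyceride lipase, fell by 0.84, and G0s2, its inhibitor, fell by 2.74 on the log2 scale (edgeR, adjusted p = 0.0196 and 0.0222). Plin1, the coat protein of fat droplets that holds Abhd5 at rest, had 2.00 ± 0.552 CPM in DKO and 63.6 ± 24.4 CPM in WT and fell by 4.98 (edgeR, adjusted p = 0.0108). Pde3b, through which insulin lowers cyclic AMP, had 57.0 ± 11.5 CPM in DKO and 144 ± 19.7 CPM in WT and fell by 1.33 (edgeR, adjusted p = 0.0108). The receptor genes Adora1 and Hcar1, whose products restrain lipolysis, fell by 3.48 and 3.16 at low levels, and the protein kinase A subunit Prkar2b fell by 1.31. The 3 that rose were Prkacb, a catalytic subunit of protein kinase A, by 0.28 ± 0.0334 (edgeR, adjusted p = 0.00168), Lipa, the lysosomal acid lipase, by 0.46 ± 0.0611 (edgeR, adjusted p = 0.00296), and Abhd12, a serine hydrolase, by 0.53 ± 0.119 (edgeR, adjusted p = 0.0195). Ces1d and Ces1f, also lower, belong to a cluster of near-identical carboxylesterase genes, and their counts are uncertain.

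**Figure D4:**
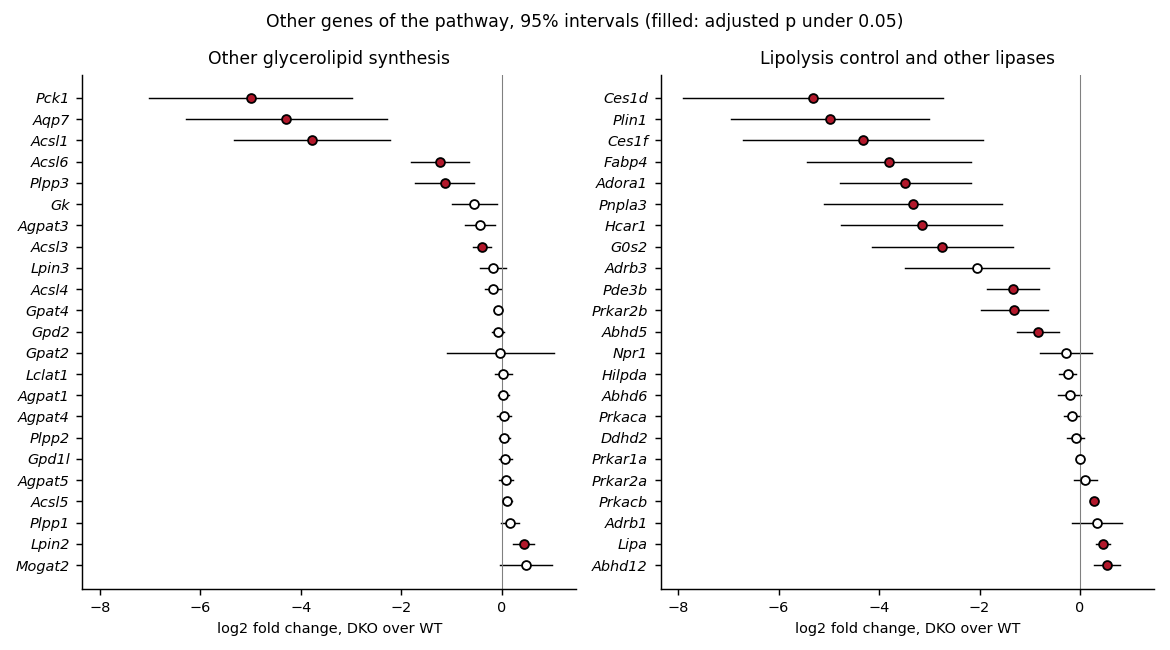
Log2 fold changes between libraries labelled DKO and WT for the 2 lists of related genes, with 95% intervals; filled points passed the adjusted p threshold of 0.05, and 1 tested lipolysis gene, which did not pass, is not drawn. In the synthesis list 6 of 23 tested genes were lower and 1 higher, and in the lipolysis list 11 of 24 were lower and 3 higher.

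The same lists were read from the other comparisons in edgeR's test. Between Ing1-KO and WT, Acsl3, Acsl4 and Acsl6 fell, with 1.84% of all genes called lower. Acsl6 did so at low levels, 0.253 ± 0.0402 CPM in Ing1-KO and 0.517 ± 0.134 CPM in WT. Plpp1, a lipid phosphate phosphatase gene, rose by 0.46 ± 0.0826 (edgeR, adjusted p = 0.0154), with 2.31% of all genes called higher. These 4 calls became 0 without WT replicate 1 or 2 or Ing1-KO replicate 2, and 1 without WT replicate 3, Gadd45a-KO replicate 2 or 3 or any DKO library. Over all genes tested, 374 were called higher and 297 lower in the main fit. Without WT replicate 1 these were 92 and 66, and without WT replicate 2 they were 69 and 67. Without Ing1-KO replicate 2 they were 58 and 38. In the fits with 1 call they lay between 99 and 391 higher and between 75 and 328 lower. The lipolysis list had 0 calls with edgeR, 1 with DESeq2 and 0 with limma-voom. Of all genes, DESeq2 called 631 higher and 608 lower, and limma-voom 358 and 306. At an unadjusted p under 0.05 in edgeR's test 6 of the 24 lipolysis genes were lower and 0 higher, against 10.3% of all genes lower and 10.4% higher. Between Gadd45a-KO and WT there were 0 calls in either list with edgeR, DESeq2 and limma-voom, and at an unadjusted p under 0.05 in edgeR's test there was 1 lower of 23 in the synthesis list and 2 lower and 1 higher of 24 in the lipolysis list, against 3.55% of all genes lower and 1.73% higher at that p. DKO against Ing1-KO had 6 lower and 2 higher of 23 in the synthesis list, against 6.02% of all genes called lower and 5.93% higher, so the higher share is near that of all genes. Among the lower were Pck1, which fell by 4.22, and Lpin3, which fell by 0.59 (edgeR, adjusted p = 0.0253 and 0.0207). The lipolysis list there had 6 lower and 4 higher of 24. Both lists had 0 calls without DKO replicate 1 or Ing1-KO replicate 2, at most 1 without DKO replicate 2 and at most 2 without Ing1-KO replicate 1. Over all genes tested, those called lower fell from 973 to 4, 9, 76 and 148 in these fits, in the same order. Those called higher fell from 959 to 2, 3, 64 and 161. The lipolysis list had 12 lower when Ing1-KO replicate 3 was dropped, with 1779 of all genes called lower. For the synthesis list, dropping WT replicate 3 left 2 lower and 0 higher, dropping Gadd45a-KO replicate 3 left 3 and 0, and dropping DKO replicate 3 left 3 and 1. The lipolysis list had 3 lower and 3 higher without WT replicate 1 or 3 or Gadd45a-KO replicate 3, and 2 and 3 without DKO replicate 3. Of all genes, 738 were lower and 734 higher without WT replicate 1, and 523 and 545 without WT replicate 3. Without Gadd45a-KO replicate 3 these were 588 and 602, and without DKO replicate 3 they were 729 and 755. DKO against Gadd45a-KO had 0 calls in the synthesis list with edgeR, 6 with DESeq2 and 0 with limma-voom. Of all genes, these called 90, 537 and 114 lower and 102, 709 and 150 higher, in that order. At an unadjusted p under 0.05 in edgeR's test 6 of the 23 synthesis genes were lower and 2 higher, against 9.5% of all genes lower and 10.4% higher. The lipolysis list had 2 calls in this comparison with edgeR, Prkacb and Lipa, which rose by 0.20 and 0.36 (edgeR, adjusted p = 0.0249 for each), with 0.631% of all genes called higher. Those 2 became 0 without DKO replicate 1 or 2 or Gadd45a-KO replicate 2, and 1 without Gadd45a-KO replicate 3. Over all genes tested, those called higher fell from 102 to 1, 10, 36 and 20 in these fits, in the same order. Dropping Ing1-KO replicate 1 gave 7 lower genes in the lipolysis list and dropping Ing1-KO replicate 3 gave 6. In these 2 fits 301 and 339 of all genes were called lower, against 90 in the main fit.

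The libraries labelled DKO had lower fat cell markers than WT, like the 10 enzymes, and higher macrophage and leukocyte markers. Plin1 and Fabp4 belong both to the fat cell markers and to the lipolysis list. The 12 fat cell markers summed to between 412 and 483 CPM in DKO, 394 and 3224 CPM in Ing1-KO, 1235 and 1624 CPM in Gadd45a-KO, and 1805 and 3573 CPM in WT. Between DKO and WT 10 of 12 were lower, against 7.11% of all genes called lower, with a median log2 fold change of -3.92. The number lower was 1 without DKO replicate 1, 4 without DKO replicate 2 or WT replicate 1, and 6 without WT replicate 3. Over all genes tested, those called lower went from 1149 to 167, 411, 174 and 384 in these fits, in the same order. The 15 macrophage and leukocyte markers summed to between 7998 and 8510 CPM in DKO, 4280 and 5063 CPM in Ing1-KO, 2256 and 6669 CPM in Gadd45a-KO, and 4281 and 4926 CPM in WT. Of these, 8 of 15 were higher in DKO than in WT, against 5.88% of all genes called higher, with a median of 0.92. The number higher was 0 without DKO replicate 1 or 2 or WT replicate 1 or 3, and 1 without DKO replicate 3. It was 2 without WT replicate 2, 5 without Ing1-KO replicate 2 and 14 without Gadd45a-KO replicate 1. Over all genes tested, those called higher went from 950 to 154, 403 and 845 without DKO replicate 1, 2 and 3. They went to 125, 585 and 290 without WT replicate 1, 2 and 3. Without Ing1-KO replicate 2 they were 708, and without Gadd45a-KO replicate 1 they were 1421. Of the smooth muscle markers 3 of 6 were higher, against 5.88% of all genes, with 0 to 5 when single libraries were left out. Of the fibroblast markers 1 of 8 was lower, against 7.11% of all genes, with 0 to 3 when single libraries were left out. In those fits 125 to 1421 of all genes were called higher and 167 to 1472 lower. The 5 markers each of skeletal muscle, endothelium and epithelium summed to between 2.55 and 7.17 CPM in any library. Of those tested, 0 of 2, 1 of 4 and 1 of 2 were called between DKO and WT. The endothelial call was higher and the epithelial call lower in DKO, against 5.88% of all genes called higher and 7.11% lower. The part of these cell types in the differences of the 10 enzymes was not tested.

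**Figure D5:**
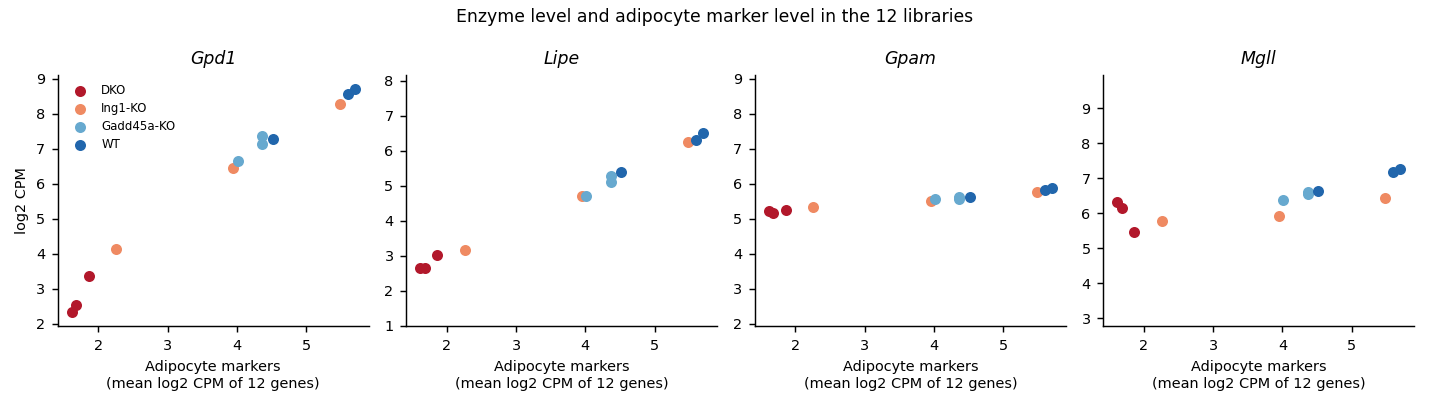
Panels for Gpd1, Lipe, Gpam and Mgll plot log2 CPM of the enzyme against the mean log2 CPM of the 12 fat cell markers, 1 point per library for the libraries labelled DKO, Ing1-KO, Gadd45a-KO and WT, with y axes of equal length. The fat cell marker mean lies between 1.62 and 1.86 in the DKO libraries and between 4.52 and 5.70 in the WT libraries, and Ing1-KO spans 2.26 to 5.49.

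Within WT too the 10 enzymes kept 1 order, with replicate 1 highest, then replicate 3, then replicate 2. In Gadd45a-KO, 7 of 10 had replicate 2 highest and replicate 3 lowest. In DKO the 10 were split over 5 orders, with at most 4 of 10 in the same one. The genes whose library pattern was most like each enzyme were found by the root mean square difference of centred log2 CPM over the 12 libraries, among 10515 genes. Gpd1 lay nearest to Cidec and Mrap (0.174 and 0.186), Gpat3 to Pparg and Acsl1 (0.245 and 0.262), and Lipe to B3galt2 and Pparg (0.164 and 0.166). Dgat1 lay nearest to Fasn and Me1 (0.0787 and 0.0828), Lpin1 to Fitm2 and Acaca, and Mgll to Olr1 and Rgcc (0.176 and 0.182). Agpat2 and Pnpla2 shared their nearest genes, Arxes1 and Fam213a, while Gpam lay nearest to Dlat and Snrk and Dgat2 to Echdc1 and Cd1d1. Cidec and Pparg are also among the fat cell markers. Among the 10 themselves, Agpat2 and Pnpla2 were the closest pair, at 0.0744, followed by Lpin1 and Dgat1 at 0.110. Gpd1 and Gpam differed by 2.02, the most distant pair. The distance is a description over libraries that share genotype and culture.

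Reads behind a single enzyme in a single library ranged from 69 to 19768, and the lowest counts were those of Gpat3 in DKO. In Ing1-KO and WT the counting error, taken as 1 over the root of the reads, was below the spread between libraries for all 10 enzymes. In DKO it exceeded that spread for 4 of 10, Agpat2, Dgat1, Dgat2 and Pnpla2, and in Gadd45a-KO for 1, Gpam. For Pnpla2 in DKO the counting error was 3.01% of the level and the SD between libraries 0.801%, and for Gpat3 in DKO they were 11.5% and 13.8%. Gpd1, Gpat3, Agpat2 and Lipe each overlap counted genes on the opposite strand, and whether counting used strand is not given in the sources used here. Without that setting, how reads of such overlaps were assigned cannot be read from the counts. Egfl7, the partner of Agpat2, had 1.24 CPM in DKO and 2.37 CPM in WT, far below Agpat2 itself.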

How the data were processed

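The authors deposited raw counts, reads per Ensembl gene, in 1 file for each of 12 libraries. The submitters' processing notes list FastQC, DESeq, HTSeq 0.5.4, Bowtie2 2.1.0 and TopHat2 2.0.9 with the builds mm9 and NCBIM37; the strand setting is not given in the sources used here. Of each library's count, between 24.2% and 24.8% stood in 5 lines that name no gene, which entered neither library sizes nor tests, so reads with several map positions are missing. A GENCODE annotation of the mouse, on a later build, gave symbols for 32919 identifiers and the exon lengths.

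CPM, fold changes and tests were computed here. The test was edgeR 4.0.16 in R 4.3.3 with TMM factors (0.986 to 1.01), filterByExpr by genotype and 1 robust quasi-likelihood fit of genotype means over all 12 libraries, with Benjamini-Hochberg adjustment over 16163 genes and a threshold of 0.05. The common biological coefficient of variation was 0.105. To obtain the SE, the size of the log2 fold change was divided by the root of its F statistic, and intervals are 95%. Levels between genes are CPM per kilobase of the union of exons. Pattern distances used log2 CPM with a prior count of 2.

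Named are the 10 enzymes, the targeted genes, the markers, up to 5 called genes per list with the smallest adjusted p between DKO and WT (up to 3 elsewhere), and the 2 genes nearest to each enzyme; other list genes and isozymes were named after their values were seen. The enzymes and lists were chosen with earlier results of these data known. Of the lipolysis list, 1 gene enters the counts and is not reported here. Alternatives were upper-quartile and RLE factors, a filter at a mean of 5 CPM or none, limma-voom (limma 3.58.1), DESeq2 1.42.0, the replicate number as a block, only the libraries compared, leaving out each library, and the longest transcript as length. Libraries of the same genotype differed beyond sampling noise in every pair, and the steps were tested on simulated data.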

Additional observations from a re-analysis of the deposited data

How the results depend on the processing

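Between the libraries labelled DKO and WT, the 10 enzymes kept their sign in all 200 alternative values, and 163 of these stayed on their side of the threshold. The number called was 7 without a filter, 9 with only the libraries compared and 10 under the other settings that kept all libraries, and 0 to 10 when single libraries were left out. Between Ing1-KO and WT, DESeq2 and limma-voom each called 1 against 0 with edgeR, and leaving out single libraries gave 0 to 8. Between DKO and Ing1-KO, 2 were called; RLE and upper-quartile factors gave 3 each, testing every gene with a read gave 0, requiring a mean of 5 CPM gave 5, DESeq2 gave 9, limma-voom 0, the replicate block 1 and only the libraries compared 0, and leaving out single libraries gave 0 to 9. Between DKO and Gadd45a-KO, 0 were called. Requiring a mean of 5 CPM gave 1, DESeq2 6 and only the libraries compared 9. Of all genes these called 94, 537 and 343 lower, in that order, against 90 in the main fit. Leaving out single libraries gave 0 to 5 enzymes. Between Gadd45a-KO and WT and for the interaction the number was 0 under every alternative run; the interaction needs all genotypes, so it had no fit of only the libraries compared. The number called over all genes tested also changed between these fits. Between DKO and WT, those called lower went from 1149 of 16163 to 833 of 25970 without a filter. They were 1671 of 15568 with only the libraries compared. Between DKO and Ing1-KO they went from 973 to 950 with RLE and 1170 with upper-quartile factors. They were 593 of 25970 without a filter, 921 of 10837 at a mean of 5 CPM and 1373 with DESeq2. They were 726 with limma-voom, 626 with the replicate block and 383 with only the libraries compared. The causes of these changes were not tested.

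Over the fits that left out single libraries, the log2 fold change of Mgll between DKO and Ing1-KO ranged from -0.23 to 0.18, and was positive without Ing1-KO replicate 1 and, at 0.17, without DKO replicate 3. The interaction ranged from -1.06 to 0.19 for Agpat2, from -0.39 to 0.19 for Lpin1, from -0.20 to 0.27 for Dgat1, from -0.60 to 0.36 for Dgat2 and from -1.18 to 0.10 for Pnpla2. Each highest value was that without Ing1-KO replicate 1. For Dgat1 it was also 0.15 without WT replicate 2, 0.0011 without Gadd45a-KO replicate 1 and 0.0056 without Gadd45a-KO replicate 2.

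The replicate number was tried as a block. Over 18 pairs of libraries sharing a number, the correlation of deviations ran from -0.189 to 0.251 and was over 0.1 in 2, and 5 of 12 libraries correlated best with their own number, so the numbers were not taken to pair the samples. The replicate block called 10 enzymes between DKO and WT and 1 between DKO and Ing1-KO. With the longest transcript as length, Dgat2 made up 18.0% of DGAT transcripts in DKO and 29.7% in WT, against 20.7% and 33.4% with the union of exons. With upper-quartile factors the genes called between DKO and Ing1-KO were 717 higher and 1170 lower, against 959 and 973 with TMM, and between DKO and Gadd45a-KO 98 higher and 139 lower, against 102 and 90. Depth was lowest for Gpat3, with 69 reads in 1 DKO library.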

Other observations

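A receptor and kinase subunits upstream of the lipases did not all move one way between the libraries labelled DKO and WT. Adrb3, the beta-adrenergic receptor typical of rodent fat cells, had 1.05 ± 0.188 CPM in the libraries labelled DKO and 4.39 ± 1.95 CPM in WT (SD, n = 3 each), a log2 fold change of -2.06 (edgeR, adjusted p = 0.0625). Of the protein kinase A subunits, Prkar1a differed by 0.00 on the log2 scale, with an interval from -0.07 to 0.08, while Prkar2b fell by 1.31 and Prkacb rose by 0.28. These genes were picked from the lipolysis list after their values were seen.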
